A study of Sus scrofa with 3 samples.

Results

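The genes described here encode the centromere and the kinetochore built on it, the spindle checkpoint, the anaphase-promoting complex and the Aurora, Polo-like and NEK kinase families. Members were the rows of the deposited table whose gene symbol matched a fixed pattern of these gene names, which gave 63 of 18730 genes. All 63 had a value above 0 in each library, so no member was lost to a filter on low values. The 3 RNA libraries, S1, S2 and S3, were made from germ cells sorted from pigs aged 90 days for SSEA4, a globo-series glycolipid of the cell surface that the study examined for enriching spermatogonial stem cells. The labels give no breed, genotype or treatment, and no second population was analysed here, so the values are levels in 1 group and not responses. Separate animals are not stated for the libraries, and the p-values below reflect the spread among libraries alone, which could be technical.

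The kinetochore is the protein assembly that ties a chromosome to spindle microtubules. It forms on chromatin that carries CENP-A, a histone H3 variant, through an inner layer called the constitutive centromere-associated network and an outer layer that grips microtubules. The spindle checkpoint holds back the anaphase-promoting complex until every chromosome is attached, after which separase cuts cohesin and sister chromatids part. In the testis, spermatogonia use this machinery in mitosis, and spermatocytes use it in the divisions of meiosis, where shugoshin protects cohesin at the centromere.

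Values are in FPKM, that is, sequenced fragments scaled by gene length and by 1000000 mapped fragments. On that basis levels are set side by side between genes. How well the scaling by length holds, for short genes above all, was not tested. The deposited table is titled as TPM, so the unit, and with it the meaning of 1 FPKM, is not certain, though ratios of genes within a library do not depend on it. Sequencing depth is unknown, since no counts were used. In RefSeq, 19 of 61 members that could be placed overlap another protein-coding gene, among them ANAPC7, ANAPC13, CENPK, CENPP, CENPT, CENPU, MIS12 and PLK1. Values of such members may hold reads of the genes they overlap. The libraries summed to between 781871 and 859642 FPKM, and mitochondrially encoded genes took 52.7% to 59.3% of that. Germ cell markers were present, with 9 of 9 measured above 1 FPKM, where 65.6% of all genes tested lay above. DDX4, an RNA helicase of germ cells, had 78.5, 84.9 and 81.1 FPKM in S1, S2 and S3. ZBTB16 and GFRA1 were the lowest of that list, at 5.16 ± 0.406 and 2.96 ± 0.742 FPKM (SD, n = 3). Spermatocyte markers were above 1 FPKM for 10 of 10, and 4 of these lay below 5 FPKM by the test described below. The Sertoli cell markers DHH, AMH, FSHR and KRT18 were under 1 FPKM in each library, while 6 of 10 genes of that list were above 1 FPKM. The highest of the list, CLU and VIM, averaged 228 and 102 FPKM, above DDX4. The list summed to 542, 423 and 254 FPKM in S1, S2 and S3. Between S1 and S2, 1.32% of genes averaging 1 FPKM or more differed over 1.5-fold, against 7.55% between S2 and S3 and 8.64% between S1 and S3, so S3 stood apart. Markers of several cell types were detected, and in such bulk samples fewer cells of a type and less RNA per cell cannot be told apart.

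All 63 members lay above 1 FPKM (limma on log2(FPKM + 1), Benjamini-Hochberg adjustment over 17949 genes, adjusted p from 3.96e-08 to 0.0124). Over all genes tested, 65.6% lay above and 28.5% below that level. The 63 also lay above it without S1 or without S3, and without S2 the call of NEK5 was lost (limma, adjusted p = 0.0653). ESPL1 only just kept its call without S2 (limma, adjusted p = 0.05 as rounded). Against 5 FPKM, 44 members lay above, 15 below and 4 were not told apart, where 42.5% of all genes lay above and 50.9% below. Against 10 FPKM, a level added after the data were seen, 30 members lay above, 29 below and 4 were not told apart, beside 30.3% above and 64.0% below among all genes. The median member stood at 10.7 FPKM and the median gene at 3.93 FPKM. Of the members, 28 stood above 15.8 FPKM, the level that the upper 25 percent of all genes pass. The choice of genes with a role in dividing cells leaves these shares as descriptions.

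**Figure D1:**
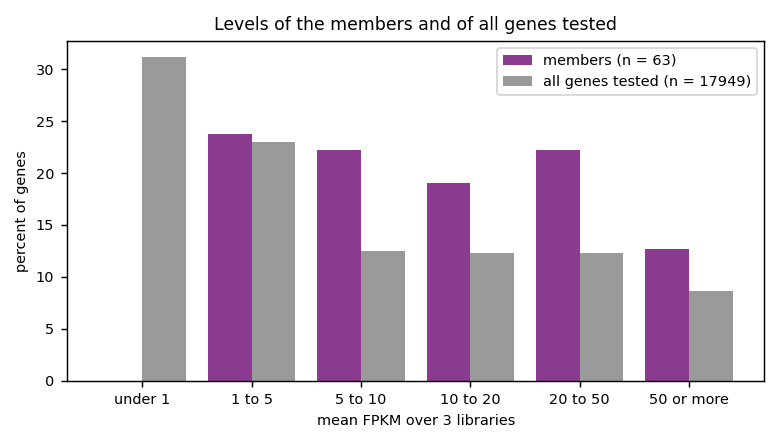
Percent of genes (vertical axis, from 0) in 6 ranges of mean FPKM over 3 libraries, for the 63 members (purple, left) and all 17949 genes tested (grey, right). No member stood under 1 FPKM, where 31.2% of all genes lay, and 12.7% of members against 8.62% of all genes stood at 50 FPKM or more.

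The members spanned from 1.43 FPKM for NEK5 to 104 FPKM for ANAPC15, and large steps separated transcripts for proteins of a single complex. Within the 10 roles set out below, 53 pairs of genes were neighbours in the order of levels. The libraries of the pair overlapped in 12 of these and did not overlap in 41. Such a count was not made for other sets of genes, so it only describes the order of these members.

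**Figure D2:**
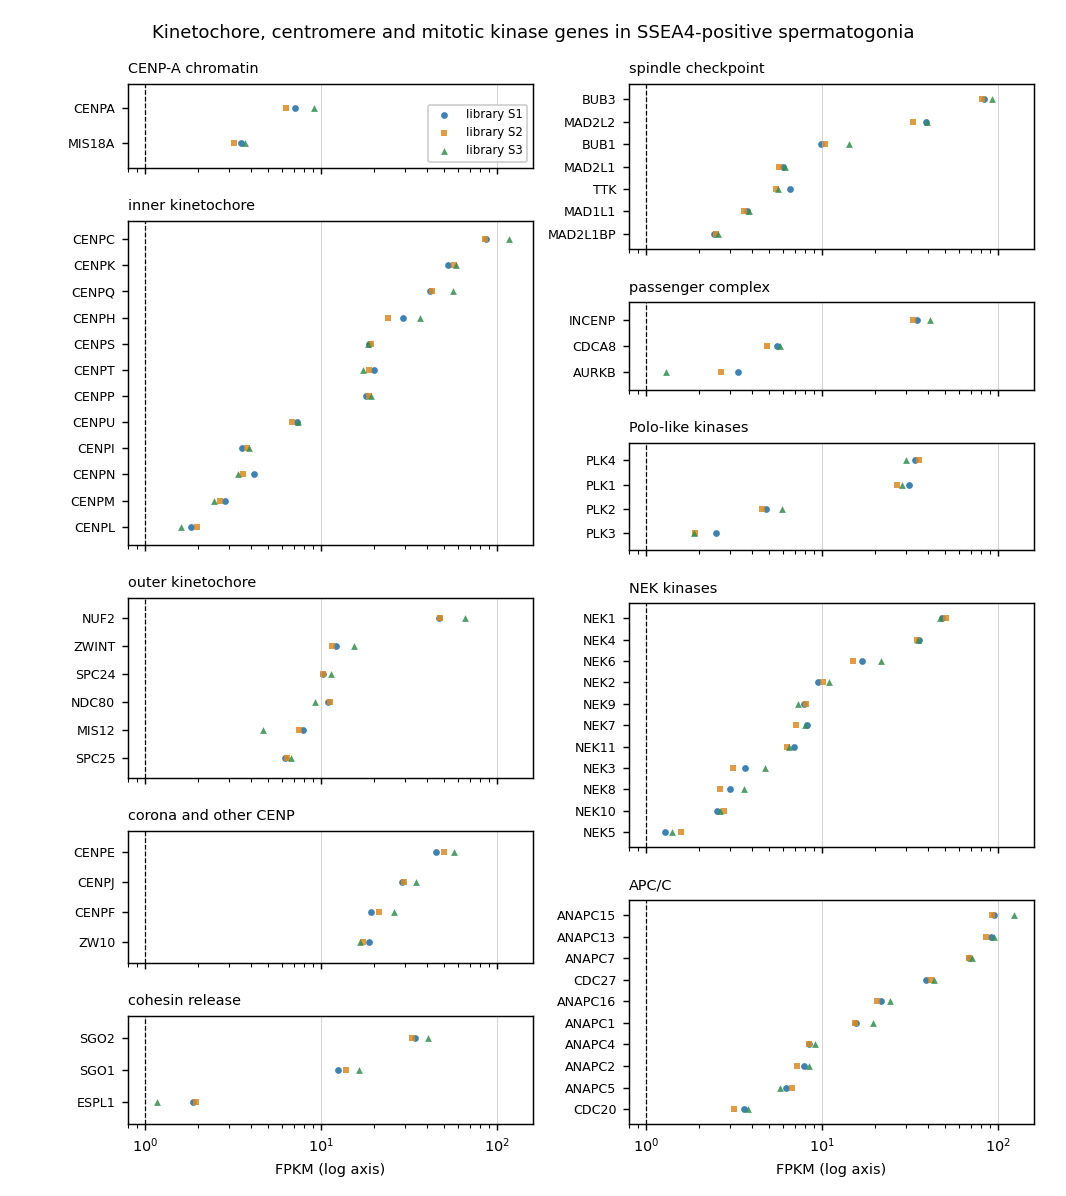
FPKM (log axis) of 62 members in libraries S1 (blue circles), S2 (orange squares) and S3 (green triangles), in panels by role and ordered by mean; the dashed line marks 1 FPKM. Points of a gene lie close together beside the distance between genes, with AURKB and MIS12 the most spread and lowest in S3.

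Centromeric chromatin came first in the order of assembly. CENPA, which encodes the histone variant that marks the centromere, had 7.14, 6.36 and 9.09 FPKM in S1, S2 and S3, highest in S3. MIS18A, which takes part in licensing the loading of new CENP-A, had 3.51, 3.20 and 3.71 FPKM. CENPA stood above MIS18A in each library, and their ranges did not overlap. HJURP, the chaperone that carries CENP-A and no member by name, had 1.42, 1.51 and 1.01 FPKM and was not told apart from 1 FPKM (limma, adjusted p = 0.0565). OIP5, which acts with MIS18A, stood at 11.7 ± 0.531 FPKM (SD, n = 3).

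The inner kinetochore network held 12 members, 8 above 5 FPKM and 4 below it, beside 42.5% above and 50.9% below among all genes. CENPC, the protein that joins CENP-A nucleosomes to the outer kinetochore, was the highest and had 86.6, 84.9 and 116 FPKM in S1, S2 and S3. CENPK followed at 52.4, 57.2 and 58.6 FPKM. CENPQ had 41.4, 42.7 and 56.4 FPKM, and its range overlapped that of CENPK. At the other end, CENPL had 1.83, 1.97 and 1.60 FPKM and CENPM 2.83, 2.68 and 2.46 FPKM. CENPC therefore exceeded CENPL by 47.2, 43.2 and 72.5 times in S1, S2 and S3.

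The steps also ran through the stable subcomplexes of the network. CENP-H, CENP-I, CENP-K and CENP-M form a tetramer, and their transcripts averaged 30.0 ± 6.28, 3.75 ± 0.172, 56.1 ± 3.29 and 2.66 ± 0.189 FPKM (SD, n = 3). CENPK was thus 21.2 ± 2.69 times CENPM. In the group of CENP-P, CENP-Q and CENP-U, CENPQ averaged 46.8 ± 8.34 FPKM, CENPP 18.7 ± 0.647 and CENPU 7.19 ± 0.313. CENPP overlaps ASPN, ECM2, IPPK, OGN and OMD in RefSeq, and their part in its value was not tested. CENPL and its partner CENPN were both low, at 1.80 ± 0.184 and 3.70 ± 0.393 FPKM. By contrast CENPS and CENPT, which carry histone folds, were nearly level at 18.9 ± 0.398 and 18.7 ± 1.38 FPKM. Their ratio was 0.939 to 1.07 over the libraries, CENPS over CENPT. These groupings by subcomplex were chosen after the values were seen.

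The outer kinetochore showed the same unevenness. The Ndc80 complex is the main microtubule coupler and has 4 subunits, of which NDC80 pairs with NUF2 and SPC24 with SPC25. NDC80 had 11.0, 11.2 and 9.25 FPKM in S1, S2 and S3, against 46.6, 47.4 and 66.0 FPKM for NUF2. The difference, NDC80 minus NUF2, was -2.23 ± 0.42 on the log2(FPKM + 1) scale (SD, n = 3), with NDC80 lower in each library and the distance widest in S3. SPC25 had 6.23, 6.39 and 6.79 FPKM and SPC24 had 10.2, 10.3 and 11.4 FPKM. SPC25 minus SPC24 was -0.64 ± 0.03. NDC80 and SPC24 overlapped in level.

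With 3 libraries the exact two-sided sign-flip permutation test cannot give a p under 0.25. That value was reached in 7 of the 8 pairs of genes compared (adjusted p = 0.286 over the 8 pairs), so none passes a threshold of 0.05, and the differences are given by their size and spread. The exception was BUB1B against BUB1, below.

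MIS12, of the complex that bridges the inner and outer layers, had 7.94, 7.46 and 4.69 FPKM in S1, S2 and S3 and was lowest in S3. Other subunits of its complex outside the member set, DSN1 and NSL1, stood at 15.3 ± 0.395 and 20.9 ± 0.927 FPKM. ZWINT, which links the outer kinetochore to the checkpoint machinery, had 12.2, 11.5 and 15.5 FPKM. KNL1, the scaffold to which ZWINT binds, was not analysed here. Among the Ska complex genes, whose products help the kinetochore hold a shortening microtubule, SKA1 averaged 66.0 ± 3.44 FPKM, SKA2 35.9 ± 0.0644 and SKA3 7.72 ± 0.477.

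Of the fibrous corona, the outermost layer, CENPE, a kinesin that carries chromosomes to the spindle equator, had 45.3, 50.1 and 56.6 FPKM in S1, S2 and S3. CENPF, a large coiled-coil protein that binds microtubules, had 19.2, 21.3 and 26.0 FPKM. CENPF minus CENPE was -1.16 ± 0.06 on the log2(FPKM + 1) scale, lower in each library, although both were highest in S3. ZW10, which helps recruit dynein to the kinetochore, had 18.8, 17.4 and 16.7 FPKM. KNTC1, a partner of ZW10 in the RZZ complex, averaged 2.82 ± 0.116 FPKM, while ZWILCH, the other partner, averaged 19.9 ± 1.73. CENPJ shares the name prefix but works at the centriole, and it had 28.7, 29.6 and 34.4 FPKM.

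Among checkpoint genes, a pair stood well above the others. BUB3, which docks checkpoint proteins on the kinetochore, had 82.7, 81.2 and 92.6 FPKM in S1, S2 and S3. MAD2L2, which despite its name acts mainly in DNA repair and translesion synthesis, had 38.8, 32.8 and 39.3 FPKM. MAD2L1, the checkpoint protein that captures CDC20, had 6.02, 5.72 and 6.13 FPKM. MAD2L1 minus MAD2L2 was -2.44 ± 0.10 on the log2(FPKM + 1) scale, so the checkpoint paralog was the lower in each library. MAD1L1, the kinetochore anchor of MAD2L1, had 3.72, 3.62 and 3.83 FPKM. MAD2L1BP, an antagonist that helps silence the checkpoint, had 2.44, 2.49 and 2.55 FPKM. Both varied little between libraries and lay below 5 FPKM by limma.

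The checkpoint kinases stood in between. TTK, also known as MPS1, had 6.59, 5.48 and 5.62 FPKM and was not told apart from 5 FPKM. BUB1, the kinase that marks centromeric histone H2A for shugoshin, had 9.86, 10.4 and 14.3 FPKM in S1, S2 and S3, highest in S3. BUB1B, which encodes BUBR1, had no symbol in the deposited table and was named from the reference table only, at 10.3, 11.5 and 9.34 FPKM. BUB1B minus BUB1 was -0.13 ± 0.38 on the log2(FPKM + 1) scale, smaller than its spread (exact sign-flip permutation test, unadjusted and adjusted p both 1). BUB1B was the higher in S1 and S2 and the lower in S3, and without S3 the difference was 0.09. TRIP13, the ATPase that resets MAD2 and no member, averaged 29.5 ± 4.52 FPKM.

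The chromosomal passenger complex corrects faulty attachments through its kinase AURKB. INCENP, its scaffold, had 34.4, 33.0 and 41.2 FPKM in S1, S2 and S3. CDCA8, also called borealin, had 5.52, 4.87 and 5.76 FPKM. AURKB had 3.34, 2.66 and 1.30 FPKM, the lowest of the 3 in each library and lowest of all in S3. INCENP was 10.3, 12.4 and 31.7 times AURKB in S1, S2 and S3, so the ratio itself was uneven between libraries. BIRC5, or survivin, the remaining subunit and no member, averaged 15.5 ± 2.74 FPKM. AURKA and AURKC, the kinases of the spindle pole and of the germ line passenger complex, were not analysed here. TPX2, the activator of AURKA, reached 58.0, 59.1 and 85.2 FPKM, and BORA, which helps AURKA activate PLK1, averaged 5.79 ± 0.270.

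Among Polo-like kinases, PLK1, the general mitotic kinase of this family, had 31.1, 26.6 and 28.6 FPKM in S1, S2 and S3. PLK2 and PLK3 respond to stress and other signals and stood lower. PLK2 had 4.83, 4.54 and 5.93 FPKM and was not told apart from 5 FPKM, and PLK3 had 2.50, 1.89 and 1.87 FPKM. The row named PLK4 had 33.9, 35.6 and 30.1 FPKM. PLK4 drives centriole duplication, but the Ensembl ID of that row carries the symbol HSPA4L, a heat shock protein gene, in the reference table. RefSeq places the 2 genes next to each other among protein-coding genes, so which of them the value belongs to is uncertain. PLK1 minus the PLK4 row was -0.20 ± 0.18 on the log2(FPKM + 1) scale, lower in 3 of 3 libraries, with the means separated by about their spread. Without the PLK4 row, 62 of 62 members lay above 1 FPKM.

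The NEK kinases, most of which act at cilia, centrosomes or the spindle, ranged from high to near the lowest levels of the set. NEK1, a kinase of cilia and the DNA damage response, had 48.0, 50.6 and 46.8 FPKM in S1, S2 and S3. NEK4 had 35.7, 34.6 and 35.0 FPKM, the smallest coefficient of variation of the members at 1.62%. NEK2, which loosens the link between centrosomes at the start of mitosis, had 9.53, 10.1 and 11.0 FPKM. NEK9, NEK6 and NEK7 form a mitotic cascade in which NEK9 activates the other pair, and NEK6 stood above both of its partners in each library. NEK6 had 16.9, 15.0 and 21.7 FPKM, highest in S3, while NEK9 and NEK7 overlapped at 7.79 ± 0.402 and 7.76 ± 0.554 FPKM (SD, n = 3). At the low end NEK10 had 2.52, 2.78 and 2.62 FPKM, and NEK5 had 1.29, 1.59 and 1.40. NEK3 and NEK5, next to each other in the RefSeq order of protein-coding genes, averaged 3.83 ± 0.823 and 1.43 ± 0.151 FPKM. NEK8 at 3.08 ± 0.505 also lay below 5 FPKM and NEK11 at 6.58 ± 0.341 above it.

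For the release of sister chromatids, the protectors stood far above the protease. SGO2, the shugoshin that protects cohesin in meiosis in the mouse, had 34.3, 32.7 and 40.4 FPKM in S1, S2 and S3. SGO1, its mitotic relative, had 12.5, 13.9 and 16.4 FPKM. SGO2 minus SGO1 was 1.27 ± 0.11 on the log2(FPKM + 1) scale, higher in each library. ESPL1, separase itself, had 1.88, 1.94 and 1.18 FPKM, the second lowest mean of the members, and lay above 1 FPKM with an adjusted p of 0.0124 by limma. PTTG1, its inhibitor securin, was not analysed here.

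The anaphase-promoting complex included ANAPC15, the member with the highest mean. ANAPC15, a small subunit needed to release the checkpoint complex, had 95.3, 92.5 and 123 FPKM in S1, S2 and S3. ANAPC13, another small subunit, had 91.5, 85.3 and 94.8 FPKM. ANAPC7 had 68.5, 68.0 and 71.4 FPKM, and CDC27, a relative in the arm that receives the activator, had 39.2, 41.4 and 43.3. The platform subunits ANAPC1 and ANAPC4 averaged 16.8 ± 2.29 and 8.66 ± 0.375 FPKM, and ANAPC5, of the same platform, had 6.25, 6.79 and 5.80 FPKM. ANAPC2, the catalytic cullin, averaged 7.81 ± 0.595. ANAPC15 and ANAPC13 thus stood above the platform and the cullin in each library, with ANAPC15 at 16.7 ± 3.98 times ANAPC5. ANAPC16 averaged 22.1 ± 1.93, and ANAPC10, named from the reference table only, 7.73 ± 0.271.

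CDC20, the activator that the checkpoint restrains, had 3.60, 3.16 and 3.79 FPKM, below 5 FPKM by limma. CDC20 minus CDC27 was -3.23 ± 0.11 on the log2(FPKM + 1) scale. FZR1, the activator used after anaphase and in G1, had 26.2, 23.9 and 29.6 FPKM. It exceeded CDC20 in each library without overlap, a comparison chosen after the values were seen. The ubiquitin-conjugating enzymes of the complex, UBE2S and UBE2C, averaged 38.2 ± 2.25 and 27.3 ± 2.10 FPKM. FBXO5, an inhibitor of the complex, averaged 4.51 ± 0.744, and CDC26, a small subunit, 2.01 ± 0.0701.

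**Figure D3:**
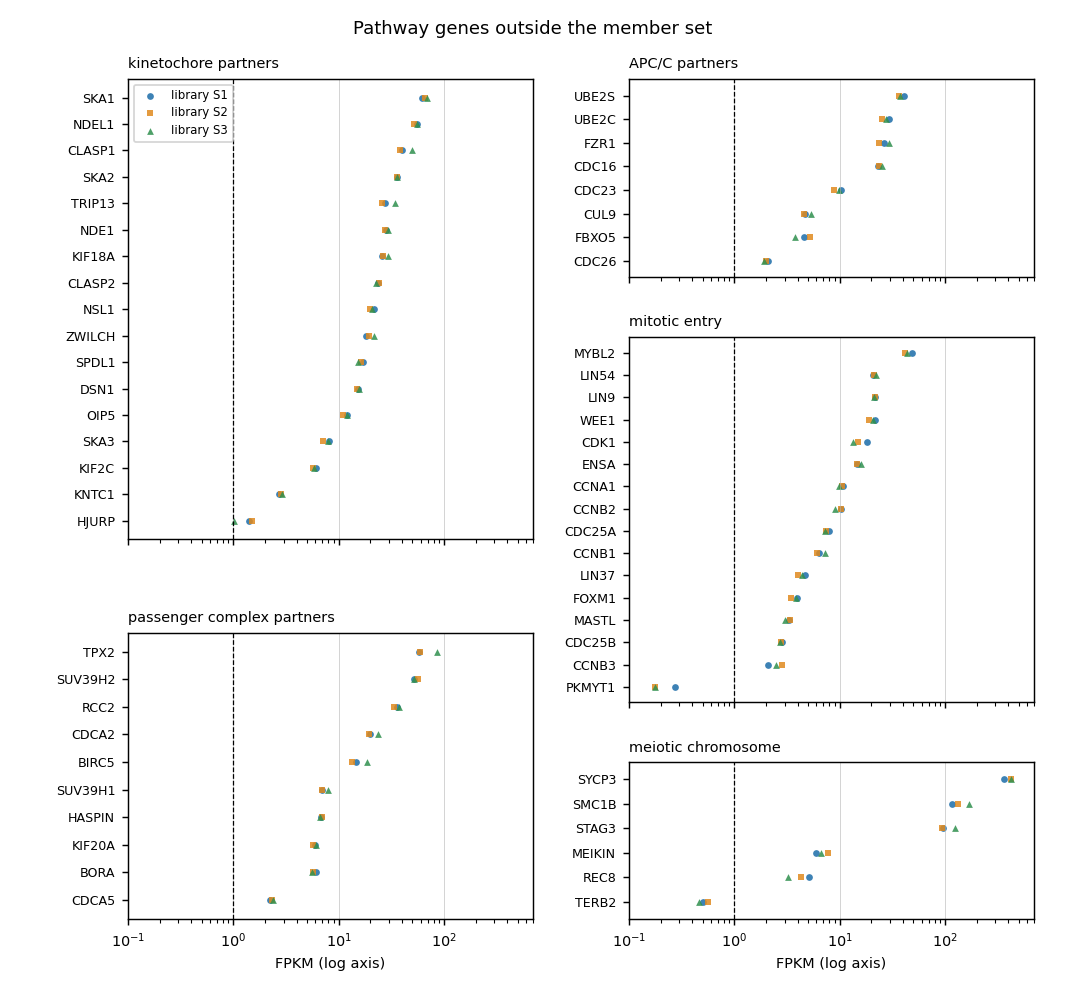
FPKM (log axis) in S1, S2 and S3 of 57 measured genes of the same pathways that the name pattern did not take in, in panels by list and ordered by mean; the dashed line marks 1 FPKM. PKMYT1 and TERB2 stood left of the line in each library, and HJURP reached it in S3.

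Of 68 listed genes that work with the members, 57 were measured, 54 above 1 FPKM, 2 below and 1, HJURP, not told apart. Over all genes tested, 65.6% lay above and 28.5% below, and the listed genes were chosen by role, so their count is a description. Among regulators of mitotic entry, MYBL2, which drives genes of late S phase and G2, averaged 44.7 ± 3.34 FPKM. LIN54 and LIN9, of the MuvB complex that MYBL2 joins, averaged 21.6 ± 0.735 and 21.4 ± 0.275, and FOXM1, the later partner, 3.77 ± 0.246. CDK1 had 18.0, 14.9 and 13.4 FPKM in S1, S2 and S3, its cyclins CCNB1 and CCNB2 averaged 6.58 ± 0.640 and 9.86 ± 0.768, and CCNB3, a cyclin used in meiosis, 2.46 ± 0.363. WEE1, which restrains CDK1 in the nucleus, averaged 20.6 ± 1.37. PKMYT1, its relative at membranes, lay below 1 FPKM at 0.210 ± 0.0559 (limma, adjusted p = 6.40e-06).

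Genes of the meiotic kinetochore and chromosome were present beside the mitotic ones. MEIKIN, the meiosis-specific kinetochore factor that recruits PLK1, had 5.97, 7.79 and 6.68 FPKM in S1, S2 and S3. SYCP3, SMC1B and STAG3, of the meiotic chromosome axis and cohesin, reached 403 ± 32.6, 139 ± 25.9 and 104 ± 17.6 FPKM. REC8, the meiotic kleisin that shugoshin protects, averaged 4.22 ± 0.917. TERB2, which tethers telomeres to the nuclear envelope in meiosis, lay below 1 FPKM at 0.514 ± 0.0527 (limma, adjusted p = 0.000156). Whether the transcripts of the members came from mitotic or meiotic cells was not tested.

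Variation between libraries was small for most members. Their median coefficient of variation was 8.70%, against 9.34% for the 12340 genes averaging 1 FPKM or more. A ratio above 1.5 between the highest and the lowest library was found for 5 of 63 members, or 7.94%, and for 11.2% of those genes. The 5 were AURKB at 2.57, MIS12 at 1.69, ESPL1 at 1.65, NEK3 at 1.52 and CENPH at 1.52. AURKB, MIS12 and ESPL1 were lowest in S3, whereas NEK3 and CENPH were highest there. Without S3 none of the members passed the ratio, beside 1.32% of all genes averaging 1 FPKM or more. After each library was rescaled to 1000000, 10 members, or 15.9%, passed, beside 14.8% of the 12724 genes averaging 1 FPKM or more on that scale. With mitochondrial and ribosomal protein genes removed, 4 members, or 6.35%, passed, beside 18.0% of 14028 genes so chosen. The genes behind these shares thus differ between scalings, and the shares are not on a like set.

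**Figure D4:**
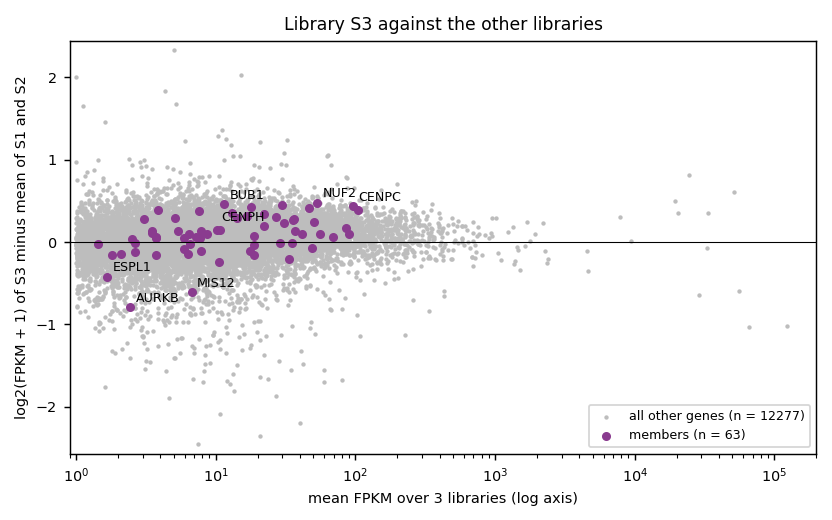
Difference of S3 from the mean of S1 and S2 in log2(FPKM + 1) (vertical axis) against mean FPKM (log axis), for the 63 members (purple) and 12277 other genes averaging 1 FPKM or more (grey). The members lie within the cloud of other genes, with AURKB at -0.79 and MIS12 at -0.61 the lowest and NUF2 at 0.48 the highest among them.

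On the deposited scale S3 held the highest value for 41 of 63 members, or 65.1%, and for 6175 of the 12340 genes averaging 1 FPKM or more. Against the mean of S1 and S2, 42 members stood higher in S3 and 21 lower, beside 58.9% of those genes higher. These counts turned with the scaling. With the mitochondrial and the ribosomal protein genes left out and the rest scaled up again, 20 members stood higher in S3 and 43 lower. Of all such genes 26.9% were higher. With each library rescaled to 1000000, 52 stood higher and 11 lower, beside 75.7%. The median of S3 minus the mean of S1 and S2 was 0.10 for the members and 0.05 for those genes on the log2(FPKM + 1) scale. Without mitochondrial and ribosomal protein genes the sign turned, to -0.10 over the members and -0.14 over all such genes. The member median minus that of all genes stayed between 0.03 and 0.06 in the 5 scalings and pseudocounts tried.

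By role, 9 of 10 genes in the list of the anaphase-promoting complex and CDC20 were higher in S3 than in the mean of S1 and S2, as were 6 of 7 checkpoint genes. The same held for 1 of 4 Polo-like kinase rows and 5 of 11 NEK genes, where the share over all genes was 58.9%. Without mitochondrial and ribosomal protein genes the counts were 2 of 10, 1 of 7, 1 of 4 and 3 of 11, beside 26.9% of all genes. None of these counts carries a test. Among members that stood higher in S3 were NUF2, by 0.48, BUB1, by 0.46, CENPH, by 0.45, CENPC, by 0.43, NEK6, by 0.42, and CENPQ, by 0.42 on the log2(FPKM + 1) scale. Without mitochondrial and ribosomal protein genes these 6 kept their sign and ran from 0.21 for CENPQ to 0.28 for NUF2, and after rescaling to 1000000 from 0.55 to 0.61. AURKB was lower there, at -0.79, as were MIS12 at -0.61, ESPL1 at -0.42 and NDC80 at -0.24. Without mitochondrial and ribosomal protein genes the values were -1.16 for AURKB, -0.86 for MIS12, -0.72 for ESPL1 and -0.45 for NDC80, and after rescaling to 1000000 NDC80 stood at -0.12.

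Sums of cell type markers also differed between libraries. The 10 Sertoli markers summed to 542, 423 and 254 FPKM in S1, S2 and S3, the 7 peritubular markers to 118, 90.4 and 79.2, and the 6 Leydig markers to 17.9, 14.7 and 7.58. Of the Sertoli markers 7 of 10 were lowest in S3, and without CLU the other 9 summed to 217, 189 and 129 FPKM. The order of the peritubular and Leydig sums rested largely on 1 gene each. TAGLN, a peritubular marker, had 37.2, 24.4 and 8.87 FPKM, and the other 6 of its list summed to 80.6, 66.0 and 70.3, lowest in S2. CYP11A1, a Leydig marker, had 12.01, 9.75 and 2.64 FPKM, and the other 5 of its list summed to 5.84, 4.92 and 4.93. The 9 germ cell markers summed to 407, 400 and 492 FPKM, with 6 of 9 highest in S3. NANOS3 among them had 50.04, 43.7 and 98.1 FPKM, and the other 8 summed to 357, 357 and 394, while DDX4, UCHL1 and ITGA6 were not highest in S3. The 10 spermatocyte markers summed to 197, 205 and 246 FPKM, with 4 of 10 highest in S3. Lowest there were 3 of 10, DMC1, HORMAD1 and OVOL1. Beside these marker counts, 6175 of the 12340 genes averaging 1 FPKM or more were highest in S3 and 4084 were lowest there. After rescaling to 1000000, 69.1% of such genes were highest in S3, against 20.5% without mitochondrial and ribosomal protein genes. The marker counts were made on the deposited scale only. The 10 spermatid markers summed to 105, 30.1 and 53.1, highest in S1, where PRM1 gave 51.0 of the sum. Without PRM1 the other 9 summed to 53.7, 28.5 and 42.05 FPKM, in the same order. Of the 10, 8 were highest in S1 and 8 lowest in S2, beside 36.2% and 48% of genes averaging 1 FPKM or more. The endothelial list summed to 15.8 to 20.2 FPKM, the leukocyte list to 21.8 to 25.8 and the erythroid list to 3.52 to 4.79 over the libraries. No gene of these lists was at 0 in all libraries. LHCGR, a Leydig marker, was listed at 0 in S1 and S3. The part of these differences in the values of AURKB, CENPC and the other members was not tested.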

How the data were processed

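Per the labels' protocols, the RNA was depleted of ribosomal RNA, made into directional libraries and sequenced as paired reads of 150 bp. Reads were trimmed with cutadapt 1.9.3 and aligned with HISAT2 2.0.4, and Cuffdiff gave FPKM per Ensembl gene. The labels name susScr3 and the submitters' processing notes also Sscrofa11.1. For that reason coordinates are left out. The authors deposited 1 table of FPKM values, titled as TPM. Its columns sum to less than 1000000, so the unit is not certain, which touches the 1 FPKM level and any ratio of 1 library to another. Whether counting used strand is not given in the sources used here. In RefSeq (Sscrofa11.1), 19 of 61 members placed on chromosomes overlap another protein-coding gene, and their values may hold its reads.

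Column names gave the group but not which sample each column is. Values under 1e-06, in 170 genes, were set to 0, and 17949 genes with a value above 0 were tested. Symbols came from the table. Of the members, 1 enters the counts but its own values are not reported here. For 61 of 63 members the reference table gave the same symbol; it gave another for PLK4 and none for ANAPC16. List genes outside the members could also take their symbol from the reference table, and a row where both sources differed was used under the reference symbol only.

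limma 3.58.1 (R 4.3.3) tested log2(FPKM + 1), with a pseudocount of 1, against a level of 1 FPKM, with an intercept, a trend, Benjamini-Hochberg adjustment and a threshold of 0.05. Such differences understate the change of low genes. The test was checked on simulated data. Of 13 listed pairs, 8 could be compared within libraries by an exact sign-flip test. Members, lists and tests were chosen with earlier results of these data known. In each role the highest and lowest members, those of pairs and the most variable were to be given by library, and other genes by mean. Alternatives were a pseudocount of 0.5, a minimum mean of 0.5 FPKM, rescaling to 1000000, quantile normalization and levels of 5 and 10 FPKM. Others were leaving out each library and removal of 13 mitochondrial and 62 ribosomal protein genes, with the rest scaled up to the library's former sum.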

Additional observations from a re-analysis of the deposited data

How the results depend on the processing

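All 63 members kept their call above 1 FPKM with a pseudocount of 0.5, after quantile normalization, and without S1 or without S3. They also kept it with the minimum mean of 0.5 FPKM, after rescaling to 1000000, and without mitochondrial and ribosomal protein genes. The minimum mean leaves values unchanged and the others raised them against the same level, so these settings could hardly undo a call. Without S2, 62 kept their call and NEK5 did not, at a log2 difference of 0.23 (limma, adjusted p = 0.0653). ESPL1 was at the threshold there, at a log2 difference of 0.32 (limma, adjusted p = 0.05 as rounded). The count thus ran from 62 to 63. With BUB1B and ANAPC10 added, 65 lay above. Raising the level to 5 FPKM left 44 above and 15 below, and to 10 FPKM 30 above and 29 below, by construction.

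The signs of 7 pair differences held in the 6 alternatives tried for each. Each of these 7 pairs had the same sign in every library. Another pseudocount, scaling both genes alike or leaving out 1 library cannot turn such a sign, so their holding is no check. BUB1B minus BUB1 ran from -0.254 to 0.091 when 1 library was left out, positive without S3. The cause was not tested. The count of members with a ratio above 1.5 between libraries was 10 after rescaling to 1000000 and 4 without mitochondrial and ribosomal protein genes. Beside these stood 14.8% and 18.0% of the genes averaging 1 FPKM or more, a set drawn anew in each setting. The count was 5 without PLK4, and 0 to 5 when 1 library was left out. It was 0 without S3, 3 without S2 and 5 without S1, where fewer libraries enter the ratio. Beside these stood 1.32%, 8.64% and 7.55% of such genes. The median difference of S3 over the members was -0.10 without mitochondrial and ribosomal protein genes, against 0.23 on rescaling to 1000000. The count of members higher in S3 was 20 without mitochondrial and ribosomal protein genes, against 42 as deposited, and 41 to 52 in the other 3 alternatives.

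The pairs AURKA with AURKB, AURKB with AURKC, AURKA with AURKC, CENPA with CENPB, and PTTG1 with ESPL1 were not run, because a gene of each was not analysed here. No paired analysis was possible because every library belongs to the same group. Low values depend on depth, which is unknown. The level of 10 FPKM, the choice of members with or without PLK4, BUB1B and ANAPC10, the ratio between libraries with its alternatives and the count higher in S3 were added after the data were seen.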
